A study of Mus musculus with 8 samples.

Results

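The genes described here are 32 genes of the lysosome and of the TFE3/TFEB pathway, out of 38991 genes with values, in mouse embryonic stem (ES) cells kept without one of the signals that hold them in the naïve state. They were taken by gene symbol from a list of MiT transcription factors, the folliculin complex, Rag GTPases, lysosomal membrane proteins and hydrolases, vacuolar ATPase subunits and the reporters Sqstm1 and Gpnmb. The set was chosen by measured values, the FPKM of Tfe3, because Tfe3 was higher in each of the 3 withdrawal conditions than in 2i+LIF, so every comparison with 2i+LIF is given below as a description. Where the threshold of the fit is used there, it only counts genes, and no p-value is given for it. Of the 32 genes, 30 reached 1 FPKM in 2 or more cultures and entered the tests. Naglu and Atp6v0d2 did not.

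RNA was sequenced from Rex1GFPd2 cells, a single ES cell line of strain 129 that carries a destabilised GFP at the Rex1 (Zfp42) locus. All 8 cultures were feeder-free in serum-free N2B27 medium and had spent 6 passages in 2i before 5 further passages in 1 of 4 conditions, being replated every 3 days and harvested at passage 11. In 2i+LIF the cells received the GSK3 inhibitor CHIR99021 (CH, 3 µM), the MEK inhibitor PD0325901 (PD, 1 µM) and the cytokine LIF, and in the others 1 of these was left out: LIF in 2i, CH in LIF+PD and PD in CH+LIF. Each condition had 2 cultures. The labels do not say whether these were started separately, so the p-values measure the spread between these cultures, which may be technical. In such bulk samples fewer cells of a type and less RNA per cell cannot be told apart.

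TFE3, TFEB and MITF are related basic helix-loop-helix leucine zipper factors of the MiT family, which bind E-box motifs in the promoters of genes for lysosome biogenesis and autophagy. When amino acids are plentiful, Rag GTPases recruit them together with mTORC1 to the lysosomal surface, where they are phosphorylated and held in the cytoplasm. Folliculin and its partners FNIP1 and FNIP2 act on RagC and RagD in this step, and in ES cells the complex is known for its part in the exit from naïve pluripotency, during which TFE3 leaves the nucleus. Because this control acts on protein location, transcript levels do not report the activity of the factors.

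The E-box core CACGTG was searched on both strands of the promoter windows given by RefSeq for GRCm38.p6, which run from 250 bases before to 50 bases after each annotated start. Windows were found for 29 of the 32 genes, the exceptions being Ctsb, Atp6v0d2 and Atp6v1h. The core was present for 12 of these 29 genes (41.4%), against 8.09% of all 27025 genes with a window. With a flanking T, as TCACGTG (every match of which also holds the core), it was present for 11 of the 29 (37.9%) and for 4.29% of all genes. The core with GT directly before and AC directly after it was found in none of the 29 and in 0.37% of all genes, and the variant TCATGTG in 3 of the 29 (10.3%; Ctsa, Gla and Tpp1) and 4.31% of all genes. Tfe3, Tfeb, Mitf, Flcn, Hexa and Psap had no CACGTG in their windows. A match describes the letters only. The set was listed for a pathway whose promoters these factors are known to bind, so the shares are no independent evidence. The 27025 genes were not limited to those expressed in these cells. Examples follow for genes whose levels are described below, each read 5′ to 3′ on the strand of the gene with the core in capitals: the Lamp1 window is shown because it held 4 cores, Ctsa because it held 2 within a short stretch (at a start annotated inside the span of the gene), Fnip1 and Rragc as regulators of the MiT factors, and Glb1, Mcoln1, Ctsd and Atp6v0d1 as a glycosidase, a channel, a protease and a proton pump subunit.
Lamp1, chr8:13159088-13159117, plus strand: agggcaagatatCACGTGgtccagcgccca
Lamp1, chr8:13159121-13159150, plus strand: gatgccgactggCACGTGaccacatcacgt
Ctsa, chr2:164833749-164833778, plus strand: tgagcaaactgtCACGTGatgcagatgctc
Ctsa, chr2:164833766-164833795, plus strand: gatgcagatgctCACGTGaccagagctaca
Fnip1, chr11:54438092-54438121, plus strand: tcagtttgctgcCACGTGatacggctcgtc
Rragc, chr4:123917309-123917338, plus strand: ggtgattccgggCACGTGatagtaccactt
Glb1, chr9:114401018-114401047, plus strand: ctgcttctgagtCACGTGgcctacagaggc
Mcoln1, chr8:3500462-3500491, plus strand: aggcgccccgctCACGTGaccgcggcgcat
Ctsd, chr7:142387908-142387937, minus strand: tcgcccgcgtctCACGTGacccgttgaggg
Atp6v0d1, chr8:105566050-105566079, minus strand: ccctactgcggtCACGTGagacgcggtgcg

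**Figure D1:**
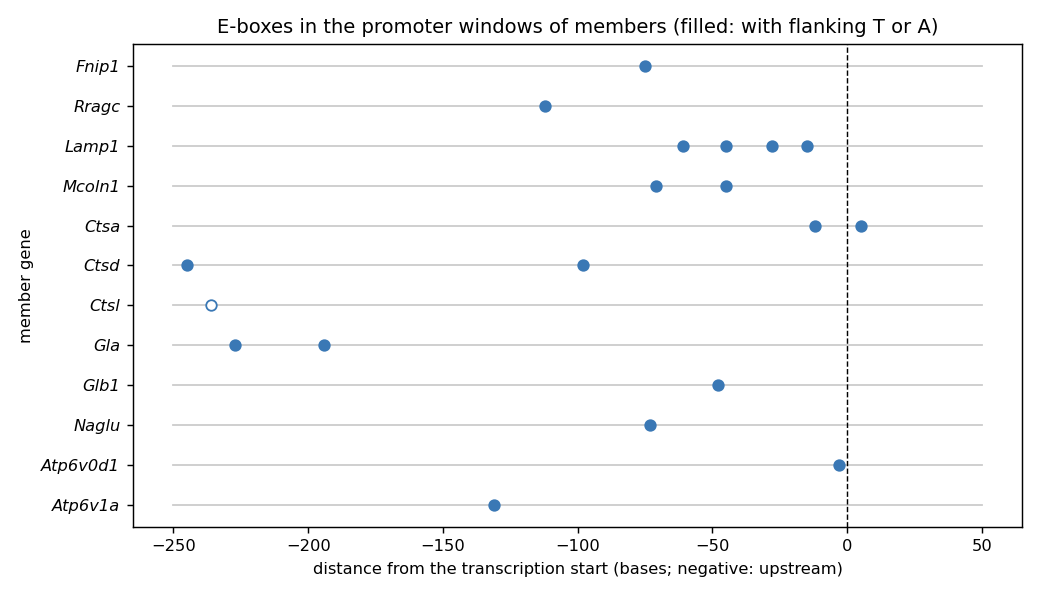
Position of each CACGTG core, in bases from the RefSeq transcription start (negative values are upstream), in the promoter windows of the 12 genes that held one; grey lines span the window and filled points mark cores with a flanking T on either strand. Lamp1 had cores at -61, -45, -28 and -15, and the single core of Ctsl is the open point.

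Levels are FPKM, fragments scaled by transcript length and by library size, as deposited, which allows genes to be compared per length. Tfe3 (chromosome X, 7762560 to 7775202, plus strand, mm10) was the most abundant MiT transcript. It stood at 89.4 and 75.01 FPKM in 2i+LIF, 104 and 112 in 2i, 115 and 119 in LIF+PD, and 119 and 113 in CH+LIF. The 2i+LIF cultures were the lowest and overlapped none of the others. This is the difference by which the set was chosen. As log2 differences of FPKM + 1 against 2i+LIF, with the standard error (SE) of the fit, it came to 0.39 ± 0.10 in 2i, 0.51 ± 0.10 in LIF+PD and 0.50 ± 0.10 in CH+LIF. The choice did not compare the withdrawal conditions with each other, but it used their Tfe3 values. The Tfe3 differences among them are therefore also a description and no independent evidence of similarity. They were 0.12 ± 0.10 for LIF+PD against 2i, 0.11 ± 0.10 for CH+LIF against 2i and -0.01 ± 0.10 for CH+LIF against LIF+PD. All 8 deposited Tfe3 values lay outside the interval deposited beside them.

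Tfeb (chromosome 17, 47737030 to 47792419, plus strand) had a different pattern. It measured 44.2 and 40.7 FPKM in 2i+LIF, 10.2 and 10.1 in 2i, 39.2 and 34.6 in LIF+PD, and 47.9 and 47.0 in CH+LIF. The 2 cultures without LIF were thus the lowest and the other 6 lay at more than 3 times their level. The mean in 2i+LIF was 4.19 times that in 2i, a log2 difference of -1.96 ± 0.09. Tfeb was higher than in 2i by 1.76 ± 0.09 in LIF+PD (limma with Benjamini-Hochberg adjustment over all genes tested, adjusted p = 6.8e-05) and by 2.12 ± 0.09 in CH+LIF (adjusted p = 4e-05), in both cultures of each. The smaller step from LIF+PD to CH+LIF, 0.36 ± 0.09, also passed the threshold (adjusted p = 0.026) but not without LIF+PD replicate 2 (adjusted p = 0.13) or without either CH+LIF culture.

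Mitf (chromosome 6, 97807058 to 98021349, plus strand), the family member best known from melanocytes, was the least abundant of the 3 at 12.2 and 16.1 FPKM in 2i+LIF, 3.01 and 3.43 in 2i, 17.0 and 12.9 in LIF+PD, and 9.98 and 6.57 in CH+LIF. Like Tfeb it was lowest without LIF, and here the CH+LIF cultures lay in between. Relative to 2i it was higher by 1.91 ± 0.22 in LIF+PD (adjusted p = 0.0013) and by 1.11 ± 0.22 in CH+LIF (adjusted p = 0.013), the latter falling to 0.84 without CH+LIF replicate 1 (adjusted p = 0.068). It was lower in CH+LIF than in LIF+PD by 0.80 ± 0.22 (log2 difference -0.80, adjusted p = 0.034), a call lost without either LIF+PD culture or CH+LIF replicate 2, with an adjusted p of up to 0.17.

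The balance between the factors shifted accordingly. The ratio of Tfe3 to Tfeb FPKM was 2.03 and 1.84 in 2i+LIF, 10.15 and 11.1 in 2i, 2.94 and 3.44 in LIF+PD, and 2.475 and 2.41 in CH+LIF. Tfe3 made up 88.7% and 89.2% of the summed FPKM of the 3 factors in 2i and between 56.9% and 71.5% in the other 6 cultures. The 2i cultures stood apart on both measures, which are ratios within a culture and do not depend on scaling between cultures.

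Flcn (chromosome 11, 59791408 to 59810016, minus strand), which encodes folliculin, measured 22.2 and 23.7 FPKM in 2i+LIF, 25.7 and 22.5 in 2i, 14.9 and 16.6 in LIF+PD, and 14.4 and 14.6 in CH+LIF. The conditions split into a higher pair, 2i+LIF and 2i, and a lower pair, LIF+PD and CH+LIF, with no overlap. Flcn was lower than in 2i by -0.58 ± 0.10 in LIF+PD (adjusted p = 0.0072) and by -0.69 ± 0.10 in CH+LIF (adjusted p = 0.0046), and these calls held in all 18 alternative analyses. LIF+PD and CH+LIF differed by -0.11 ± 0.10 (adjusted p = 0.47).

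Fnip1 and Fnip2 encode the partners with which folliculin forms its complex. Fnip1 measured 9.14 and 9.26 FPKM in 2i+LIF, 8.48 and 7.96 in 2i, 5.44 and 5.45 in LIF+PD, and 8.04 and 7.60 in CH+LIF. It was lowest in LIF+PD, below 2i by -0.52 ± 0.10 (adjusted p = 0.011) and below CH+LIF, the difference of CH+LIF against LIF+PD being 0.45 ± 0.10 (adjusted p = 0.016). Fnip2 spanned a wider range, from 16.6 and 22.5 FPKM in 2i+LIF to 7.98 and 8.06 in 2i, 6.64 and 5.86 in LIF+PD, and 11.1 in both CH+LIF cultures. All 6 withdrawal cultures lay below both 2i+LIF cultures, with mean log2 differences of -1.17 ± 0.15, -1.49 ± 0.15 and -0.75 ± 0.15 in that order. The ratio of Fnip2 to Fnip1 FPKM was 1.81 and 2.43 in 2i+LIF and lay between 0.941 and 1.46 in the withdrawal cultures. CH+LIF was above LIF+PD for Fnip2 by 0.74 ± 0.15 (adjusted p = 0.010). The Fnip1 and Fnip2 calls between withdrawal conditions were each lost with single cultures left out, with adjusted p of up to 0.054 for Fnip1 in LIF+PD against 2i (without 2i replicate 1), 0.087 for Fnip1 in CH+LIF against LIF+PD (without CH+LIF replicate 1) and 0.060 for Fnip2 (without LIF+PD replicate 2).

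Rragc and Rragd encode the Rag GTPases on which folliculin acts. Rragc measured 39.4 and 47.3 FPKM in 2i+LIF, 59.0 and 51.3 in 2i, 33.1 and 25.1 in LIF+PD, and 39.2 and 49.1 in CH+LIF. It was lowest in LIF+PD, at -0.91 ± 0.17 against 2i (adjusted p = 0.0092, 0.055 without 2i replicate 1), and CH+LIF was 0.59 ± 0.17 above LIF+PD (adjusted p = 0.039, 0.19 without LIF+PD replicate 2). Rragd measured 19.9 and 26.0 FPKM in 2i+LIF, 20.7 and 28.9 in 2i, 16.7 and 23.8 in LIF+PD, and 13.5 and 13.6 in CH+LIF. Only CH+LIF stood below every other culture, and against 2i the difference was -0.81 ± 0.22 (adjusted p = 0.036, 0.15 without 2i replicate 2).

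**Figure D2:**
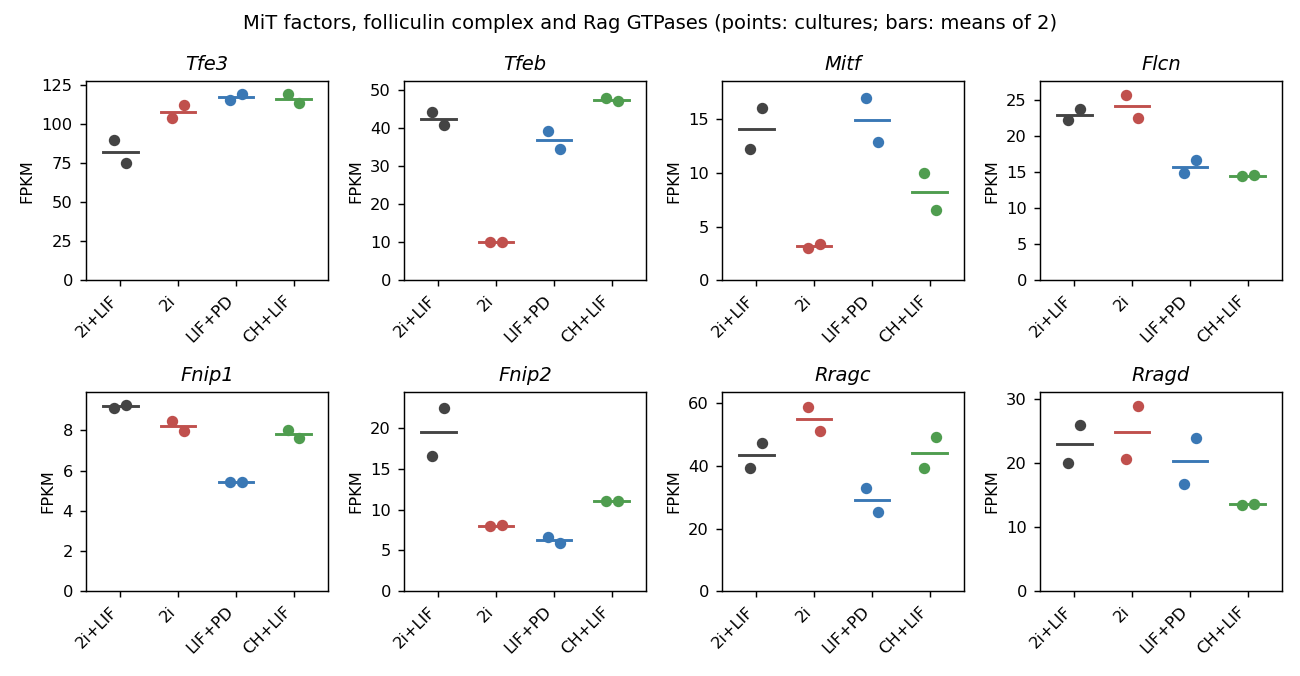
FPKM of 8 regulators in each of the 8 cultures, with points for cultures and bars for the mean of 2; each vertical axis starts at 0. Tfe3 is lowest in 2i+LIF, Tfeb and Mitf are lowest in 2i (10.2 and 10.1 FPKM for Tfeb), and Flcn is lower in LIF+PD and CH+LIF than in the other conditions.

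The summed transcripts of the lysosome itself were highest in 2i+LIF. The 17 hydrolases, activators and membrane proteins of the set summed to 1443 and 1533 FPKM in 2i+LIF, 1074 and 940.0 in 2i, 919.1 and 935.7 in LIF+PD, and 831.1 and 891.2 in CH+LIF. As a share of all FPKM this was 0.165% and 0.185% in 2i+LIF. It was 0.1248% and 0.1219% in 2i, 0.117% and 0.1222% in LIF+PD, and 0.1087% and 0.1245% in CH+LIF, so these conditions overlapped. Of the 30 genes tested, 2 were called higher and 12 lower in 2i than in 2i+LIF (adjusted p below 0.05, a threshold passed by 18.6% of all genes, 9.77% higher and 8.86% lower), 1 higher and 13 lower in LIF+PD (25.2% of all genes, 14.8% higher and 10.4% lower) and 2 higher and 18 lower in CH+LIF (25.4% of all genes, 12.2% higher and 13.3% lower). These 3 comparisons share the 2i+LIF cultures and were used to choose the set, so nothing is read from the counts. The median log2 difference of the 30 genes was -0.35, -0.54 and -0.65, beside 0.04, 0.03 and 0.01 over all 12927 genes tested. The genes counted as higher were Tfe3, whose direction is the rule itself and no result, and in 2i and CH+LIF also Ctsz. Without 2i+LIF replicate 2 neither was counted, and the counts were 0 higher and 11 lower, 0 and 11, and 0 and 13.

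**Figure D3:**
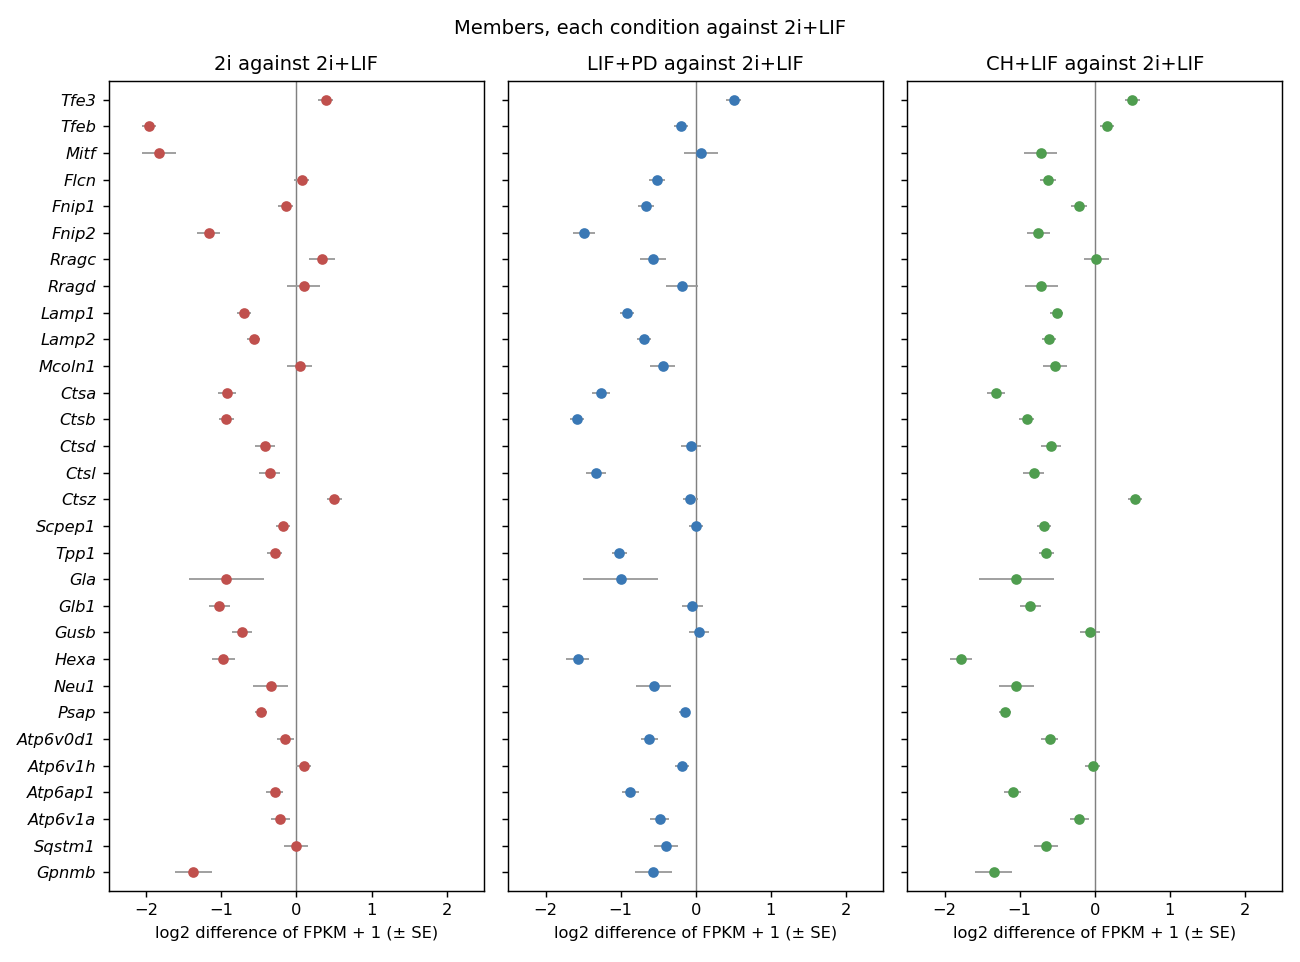
Log2 difference of FPKM + 1 (± SE of the fit) of the 30 genes in each withdrawal condition against 2i+LIF, 2 cultures per condition. Most points lie to the left of 0, with Hexa at -1.78 in CH+LIF and Tfe3 to the right in all 3 panels, and no test is attached because these comparisons chose the set.

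Lamp1 and Lamp2 encode the heavily glycosylated proteins that line the lysosomal membrane. Lamp1 (chromosome 8, 13159135 to 13175338, plus strand) was the most abundant transcript of the set at 337 and 359 FPKM in 2i+LIF, 223 and 205 in 2i, 190.5 and 178 in LIF+PD, and 233 and 257 in CH+LIF. As for Tfe3, all 8 of these values lay outside the interval deposited beside them. Every withdrawal culture lay below both 2i+LIF cultures, with log2 differences of -0.70 ± 0.09, -0.92 ± 0.09 and -0.51 ± 0.09. CH+LIF was above LIF+PD by 0.41 ± 0.09 (adjusted p = 0.014), a call lost without LIF+PD replicate 2 (adjusted p = 0.084) or CH+LIF replicate 2. Lamp2 measured 38.8 and 42.5 FPKM in 2i+LIF and between 24.2 and 27.9 in the 6 withdrawal cultures. Those conditions were close to each other, the largest of the 3 differences being -0.12 ± 0.09 for LIF+PD against 2i (adjusted p = 0.37). Mcoln1 encodes the lysosomal calcium channel TRPML1 and ranged from 15.9 to 28.3 FPKM. It was lower in CH+LIF (17.5 and 18.2) than in 2i (26.8 and 27.2) by -0.57 ± 0.16 (adjusted p = 0.043, 0.16 without CH+LIF replicate 1).

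Among the proteases, Ctsa, Ctsb, Ctsl and Tpp1 were lower in the withdrawal cultures than in 2i+LIF. Ctsa (chromosome 2, 164832873 to 164841032, plus strand) encodes cathepsin A, which also protects lysosomal β-galactosidase and neuraminidase. It measured 158 and 174 FPKM in 2i+LIF, 94.5 and 79.7 in 2i, 65.0 and 71.9 in LIF+PD, and 60.8 and 71.5 in CH+LIF, and did not pass the threshold in any comparison between withdrawal conditions (adjusted p between 0.058 and 0.78). Ctsb, the cysteine protease cathepsin B, measured 57.1 and 58.7 FPKM in 2i+LIF, 31.9 and 27.8 in 2i, 18.2 and 19.1 in LIF+PD, and 29.0 and 31.8 in CH+LIF. LIF+PD was the lowest here, at -0.65 ± 0.10 against 2i (adjusted p = 0.0035), and CH+LIF lay 0.67 ± 0.10 above it (adjusted p = 0.0026). Both calls held in all 18 alternatives.

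Ctsl, cathepsin L, was likewise lowest in LIF+PD. It measured 133 FPKM in both 2i+LIF cultures, 118 and 91.2 in 2i, 48.4 and 56.7 in LIF+PD, and 78.8 and 71.6 in CH+LIF. It fell by 0.97 ± 0.14 on the log2 scale in LIF+PD against 2i (adjusted p = 0.0028), and CH+LIF was 0.51 ± 0.14 above LIF+PD (adjusted p = 0.028, 0.14 without LIF+PD replicate 1). Tpp1, a tripeptidyl peptidase, went from 56.1 and 64.9 FPKM in 2i+LIF and 49.3 and 49.0 in 2i to 30.5 and 28.3 in LIF+PD and 36.3 and 40.2 in CH+LIF. The difference of LIF+PD against 2i was -0.72 ± 0.10 (adjusted p = 0.0027) and held in all 18 alternatives.

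Other proteases were ordered differently. Ctsz, the carboxypeptidase cathepsin Z, was higher in both cultures of 2i and of CH+LIF than in 2i+LIF. The log2 differences were 0.50 ± 0.10 and 0.54 ± 0.10, and at the lowest 0.41 and 0.46 over the 18 alternatives. Whether Ctsz was counted as higher there depended on single cultures. It measured 28.7 and 27.5 FPKM in 2i+LIF, 43.0 and 37.6 in 2i, 26.7 in both LIF+PD cultures, and 43.3 and 39.2 in CH+LIF. The cultures fell into a higher pair of conditions, the 2 that received CH with one other factor, and a lower pair, 2i+LIF and LIF+PD. LIF+PD was below 2i by -0.57 ± 0.10 (adjusted p = 0.0057) and CH+LIF above LIF+PD by 0.60 ± 0.10 (adjusted p = 0.0040), and both calls held in all 18 alternatives. Scpep1, a serine carboxypeptidase, was set apart in CH+LIF alone, with 62.7 and 61.0 FPKM there and between 80.3 and 102 in the other 6 cultures. The difference of CH+LIF against LIF+PD was -0.68 ± 0.09 (adjusted p = 0.0022), and against 2i it was -0.49 ± 0.09 (adjusted p = 0.011, 0.057 without CH+LIF replicate 2). Ctsd, the aspartic protease cathepsin D, measured 155 and 177 FPKM in 2i+LIF, 132 and 116 in 2i, 149 and 169 in LIF+PD, and 99.5 and 123 in CH+LIF, and was lower in CH+LIF than in LIF+PD by -0.52 ± 0.13 (adjusted p = 0.026, 0.13 without CH+LIF replicate 1).

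The glycosidases break down the sugar chains of glycolipids and glycoproteins. Hexa (chromosome 9, 59539667 to 59565105, plus strand), the α subunit of β-hexosaminidase, measured 130.2 and 141 FPKM in 2i+LIF, 77.8 and 60.2 in 2i, 41.6 and 48.3 in LIF+PD, and 35.1 and 42.6 in CH+LIF. The mean in 2i+LIF was 1.97, 3.02 and 3.49 times those of the withdrawal conditions in this order. Within these, Hexa was lower than in 2i by -0.60 ± 0.15 in LIF+PD (adjusted p = 0.027, 0.14 without LIF+PD replicate 1) and by -0.81 ± 0.15 in CH+LIF (adjusted p = 0.010, 0.062 without CH+LIF replicate 1).

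Glb1, lysosomal β-galactosidase, and Psap, the precursor of the saposins that present sphingolipids to hydrolases, did not follow Hexa. Glb1 measured 47.0 and 45.1 FPKM in 2i+LIF, 24.4 and 20.002 in 2i, 49.0 and 40.7 in LIF+PD, and 26.9 and 23.1 in CH+LIF. LIF+PD was above 2i by 0.98 ± 0.14 (adjusted p = 0.0027), and CH+LIF was below LIF+PD by -0.81 ± 0.14 (adjusted p = 0.0049). Psap measured 138 and 141 FPKM in 2i+LIF, 104 and 96.2 in 2i, 125 and 127 in LIF+PD, and 58.9 and 61.8 in CH+LIF, where it was lowest. Its difference of CH+LIF against LIF+PD, -1.05 ± 0.08 (adjusted p = 0.00017), and of CH+LIF against 2i, -0.72 ± 0.08 (adjusted p = 0.0011), held in all 18 alternatives, as did both Glb1 differences. That of LIF+PD against 2i, 0.33 ± 0.08 (adjusted p = 0.019), was lost without LIF+PD replicate 2 (adjusted p = 0.089), LIF+PD replicate 1 or 2i replicate 2.

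Gusb, β-glucuronidase, was low only in 2i, with 5.62 and 6.73 FPKM there and between 9.79 and 11.7 in the other 6 cultures. LIF+PD was above 2i by 0.76 ± 0.13 (adjusted p = 0.0064) and CH+LIF above 2i by 0.66 ± 0.13 (adjusted p = 0.013, 0.070 without CH+LIF replicate 2). Neu1, a sialidase, ranged from 5.81 to 15.03 FPKM and passed no threshold between withdrawal conditions. Gla, α-galactosidase A, differed widely between cultures of one condition (11.8 and 4.12 FPKM in LIF+PD), and its differences between withdrawal conditions, from -0.05 ± 0.50 to -0.11 ± 0.50, lay within their SE. Naglu, which removes N-acetylglucosamine from heparan sulphate, lay between 0.290 and 0.794 FPKM.

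**Figure D4:**
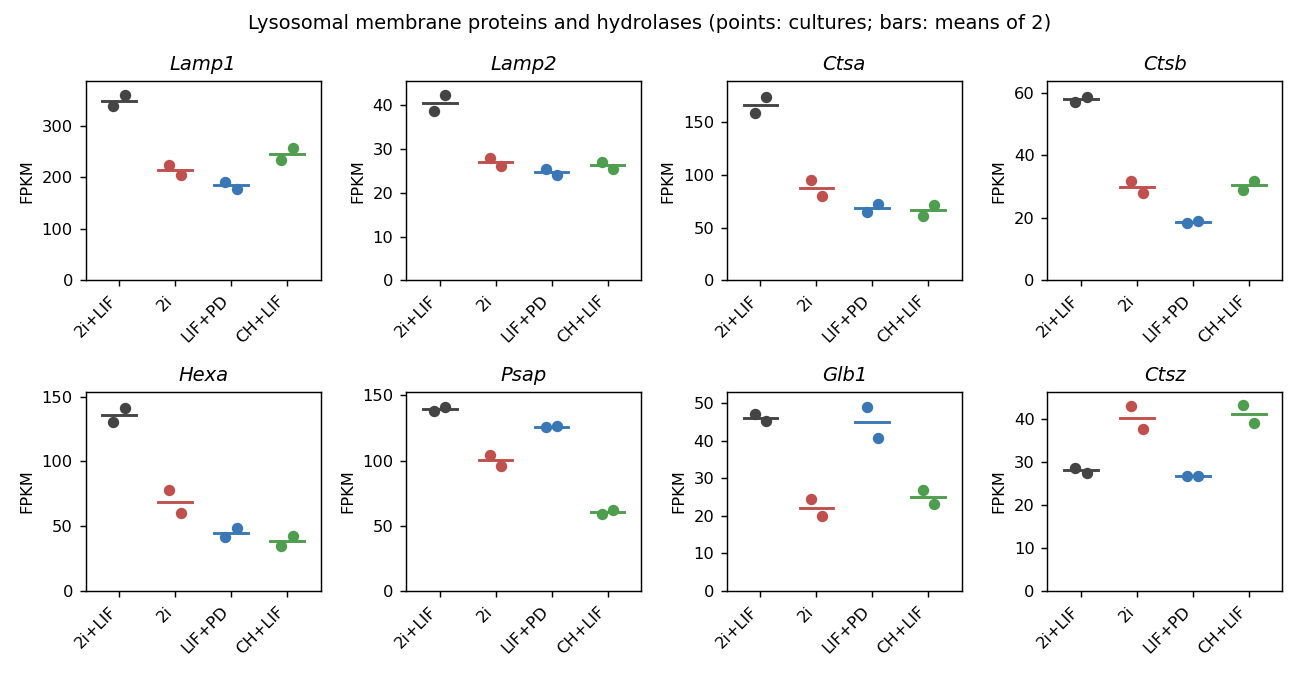
FPKM of 8 lysosomal genes in each of the 8 cultures, with points for cultures and bars for the mean of 2; each vertical axis starts at 0. Lamp1, Lamp2, Ctsa, Ctsb and Hexa are highest in 2i+LIF, Psap is lowest in CH+LIF (58.9 and 61.8 FPKM), Glb1 is low in 2i and CH+LIF, and Ctsz is high in these.

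The vacuolar ATPase acidifies the lysosome and also takes part in amino acid sensing by mTORC1. Atp6ap1, an accessory subunit, measured 75.5 and 72.8 FPKM in 2i+LIF, 60.6 and 60.5 in 2i, 43.4 and 37.0 in LIF+PD, and 31.3 and 37.3 in CH+LIF. It was lower than in 2i by -0.58 ± 0.11 in LIF+PD (adjusted p = 0.0098, 0.059 without LIF+PD replicate 2) and by -0.81 ± 0.11 in CH+LIF (adjusted p = 0.0033). Atp6v0d1, a subunit of the membrane sector, measured 61.9 and 60.0 FPKM in 2i+LIF, 60.95 and 49.4 in 2i, 38.9 and 39.8 in LIF+PD, and 37.6 and 42.4 in CH+LIF, with differences against 2i of -0.47 ± 0.11 in LIF+PD (adjusted p = 0.024) and -0.45 ± 0.11 in CH+LIF (adjusted p = 0.030). Both of these were lost with single cultures left out, with adjusted p of up to 0.10 without LIF+PD replicate 1 and 0.15 without CH+LIF replicate 1. Atp6v1a and Atp6v1h, of the catalytic sector, ranged from 29.0 to 44.4 and from 19.0 to 24.7 FPKM and passed no threshold between withdrawal conditions. Atp6v0d2, the other form of the d subunit, was listed at 0 in 7 cultures and at 0.0381 in LIF+PD replicate 1.

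Sqstm1 encodes the autophagy receptor p62 and measured 161 and 153 FPKM in 2i+LIF, 184 and 133 in 2i, 114 and 125 in LIF+PD, and 91.3 and 109 in CH+LIF. It was lower in CH+LIF than in 2i by -0.64 ± 0.16 (adjusted p = 0.028, 0.14 without CH+LIF replicate 1). Gpnmb, a glycoprotein often read as a reporter of MiT activity, was low throughout at 1.46 and 2.94 FPKM in 2i+LIF, 0.198 and 0.205 in 2i, 0.939 and 1.29 in LIF+PD, and 0.234 and 0.210 in CH+LIF. Its differences between withdrawal conditions lay at the threshold, at 0.81 ± 0.24 for LIF+PD against 2i (adjusted p = 0.04999, 0.20 without LIF+PD replicate 2) and -0.79 ± 0.24 for CH+LIF against LIF+PD (adjusted p = 0.048, 0.19 without LIF+PD replicate 2), and each was lost without any 1 of the 6 withdrawal cultures.

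Counted over the set, LIF+PD against 2i gave 6 genes higher and 10 lower of the 30 tested beside 25.1% of all genes called (14.0% higher and 11.1% lower). CH+LIF against 2i gave 3 higher and 11 lower, beside 23.9% (10.6% and 13.3%), and CH+LIF against LIF+PD gave 9 higher and 6 lower, beside 30.4% (12.6% and 17.8%). The median log2 difference of the 30 genes was -0.28, -0.14 and -0.05, and that of all genes was -0.005, -0.03 and -0.01. The median of the 30 genes in CH+LIF against 2i was -0.006 with every culture rescaled to the same FPKM sum, -0.31 without 2i replicate 2 and -0.33 without CH+LIF replicate 2. In CH+LIF against LIF+PD it turned to 0.02 with that rescaling, to 0.02 without LIF+PD replicate 2 and to 0.004 without CH+LIF replicate 1, and was -0.12 without CH+LIF replicate 2. Each pair of these comparisons shares the cultures of 1 condition. The calls that held in all 18 alternatives were 9 in LIF+PD against 2i (Tfeb, Mitf, Flcn, Ctsb, Ctsl, Ctsz, Tpp1, Glb1 and Gusb), 4 in CH+LIF against 2i (Tfeb, Flcn, Psap and Atp6ap1) and 5 in CH+LIF against LIF+PD (Ctsb, Ctsz, Scpep1, Glb1 and Psap). The remaining calls in CH+LIF against 2i included those of Ctsl at -0.46 ± 0.14 (adjusted p = 0.049, 0.19 without 2i replicate 1) and Tpp1 at -0.35 ± 0.10 (adjusted p = 0.043, 0.19 without CH+LIF replicate 1). In CH+LIF against LIF+PD they included Tpp1 at 0.37 ± 0.10 (adjusted p = 0.031, 0.14 without CH+LIF replicate 2).

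**Figure D5:**
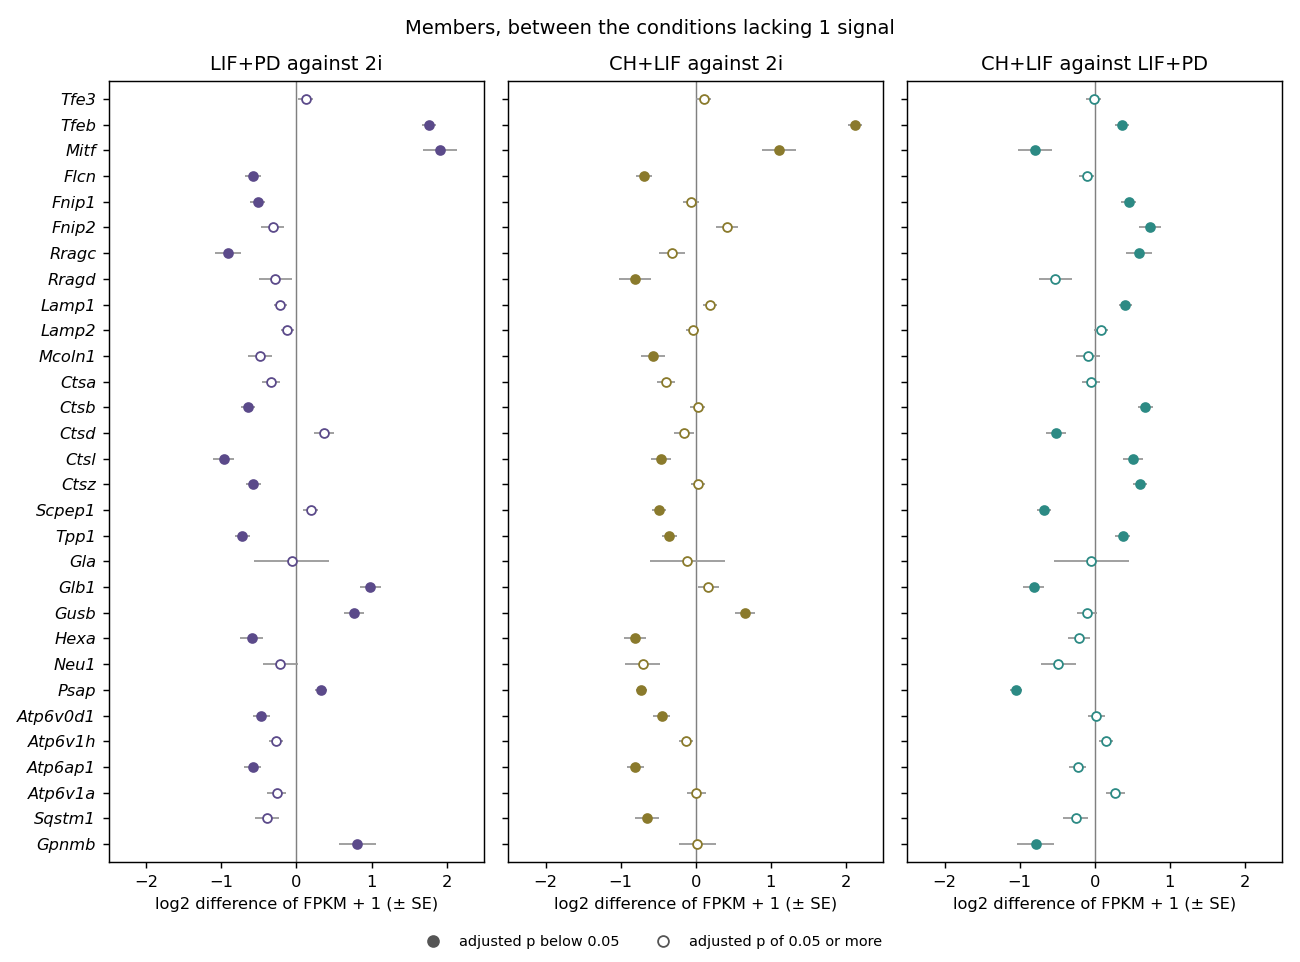
Log2 difference of FPKM + 1 (± SE of the fit) of the 30 genes between the conditions that lack 1 signal, 2 cultures per condition; filled points passed an adjusted p below 0.05 in limma. Tfeb stands at 1.76 and 2.12 in the first and second panels, Psap at -1.05 in the third, and Tfe3 is close to 0 in all 3.

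Other genes of the pathway were counted from lists. Beside them, the shares of all genes called were 25.1% in LIF+PD against 2i, 23.9% in CH+LIF against 2i and 30.4% in CH+LIF against LIF+PD. Of 32 further lysosomal hydrolases and activators that passed the filter, of 40 listed, 4 were higher and 8 lower in LIF+PD than in 2i, 1 higher and 13 lower in CH+LIF than in 2i, and 3 higher and 12 lower in CH+LIF than in LIF+PD, which is 37.5%, 43.8% and 46.9% of them. Their median log2 differences were -0.17, -0.54 and -0.28, and over the 18 alternatives the number called ranged from 9 to 12, 9 to 16 and 8 to 15. Ctsc, cathepsin C, which activates serine proteases, was almost absent from LIF+PD at 1.17 and 1.11 FPKM and stood at 18.2 and 17.8 in CH+LIF, a difference of 3.15 ± 0.18 (adjusted p = 8.7e-05). Manba, β-mannosidase, went the same way with 3.39 and 5.11 FPKM in LIF+PD and 41.4 and 29.9 in CH+LIF, a difference of 2.81 ± 0.22 (adjusted p = 0.00022). Hgsnat, which acetylates heparan sulphate, went the opposite way with 8.48 and 7.77 FPKM in LIF+PD and 0.957 and 1.13 in CH+LIF, a difference of -2.16 ± 0.16 (adjusted p = 0.00017).

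Of 27 further membrane and sorting genes tested, of 30 listed, the counts higher and lower in the same order were 3 and 9, 2 and 7, and 5 and 5, or 44.4%, 33.3% and 37.0%. Laptm5, a lysosomal transmembrane protein best known from blood cells, was low in 2i like Tfeb, at 32.6 and 32.1 FPKM against 111 and 110 in LIF+PD, a difference of 1.74 ± 0.11 (adjusted p = 0.00013). Of 17 further vacuolar ATPase subunits tested, of 20 listed, 1 was higher and 3 lower in LIF+PD than in 2i, 0 higher and 3 lower in CH+LIF than in 2i, and 0 higher and 1 lower in CH+LIF than in LIF+PD. These were 23.5%, 17.6% and 5.88% of them, beside 25.1%, 23.9% and 30.4% of all genes. Of 31 genes of the Rag, Ragulator, GATOR and mTORC1 group, all tested, 2 were higher and 1 lower, 1 higher and 6 lower, and 2 higher and 4 lower in the same order. These were 9.68%, 22.6% and 19.4% of the group, beside the same 25.1%, 23.9% and 30.4% of all genes. Rragb, another Rag GTPase, was lower in LIF+PD (16.8 and 17.0 FPKM) than in 2i (24.8 and 27.0) by -0.59 ± 0.10 (adjusted p = 0.0049). Of 35 autophagy genes tested, of 39 listed, the counts were 6 higher and 4 lower, 2 and 4, and 4 and 10, or 28.6%, 17.1% and 40.0%. Over the 18 alternatives the number called in the 3 comparisons, in this order, ranged from 7 to 13, 4 to 10 and 6 to 10 for the membrane and sorting genes, 2 to 6, 0 to 3 and 0 to 1 for the ATPase subunits, 1 to 4, 3 to 8 and 1 to 7 for the Rag and mTORC1 group, and 4 to 11, 2 to 9 and 11 to 14 for autophagy. Wdr45, which acts in autophagosome formation, measured 61.7 and 60.2 FPKM in LIF+PD and 20.1 and 20.4 in 2i, a difference of 1.54 ± 0.09 (adjusted p = 7.6e-05). The differences given here for Ctsc, Manba, Hgsnat, Laptm5, Rragb and Wdr45 passed the threshold in all 18 alternatives.

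The cultures carried the markers of ES cells, with all 8 listed genes present and Pou5f1 between 1625 and 2269 FPKM. Some of them moved with the conditions: Klf4, a target of LIF signalling, measured 202.9 and 196 FPKM in 2i+LIF, 47.7 and 50.6 in 2i, 118 and 103 in LIF+PD, and 175 and 219 in CH+LIF, and Tfcp2l1 measured 115 and 123 in 2i+LIF, 62.8 and 53.7 in 2i, 57.0 and 48.9 in LIF+PD, and 108 and 119 in CH+LIF. Other markers had a different order. Nanog was lowest in CH+LIF, at 305.5 and 283 FPKM beside 548.9 and 476.4 in 2i+LIF. Sox2 was also lowest there, at 174 and 157.3 beside 248.9 and 213.8. Zfp42 measured 217.3 and 192.8 in 2i+LIF, 253.2 and 259.7 in LIF+PD, and 257.8 and 237.6 in CH+LIF. Of the 8 markers, 0 were called higher and 4 lower in 2i than in 2i+LIF, 1 and 3 in LIF+PD, and 0 and 2 in CH+LIF. The shares of all genes called in either direction were 18.6%, 25.2% and 25.4% in the same order. Whether the 8 markers were called more often than other genes was not tested. Of 8 markers of macrophages, which are rich in lysosomes, Lyz2, Emr1 and Fcgr1 were at 0 in every culture, Ptprc reached 0.0226 FPKM, and the sum ranged from 7.77 to 19.2 FPKM. Most of it was Cd68, itself a lysosomal protein. Cd68 measured 19.0 and 18.1 FPKM in 2i+LIF, 15.4 and 13.7 in 2i, 16.8 and 14.6 in LIF+PD, and 7.05 and 7.93 in CH+LIF. Like the summed FPKM of the lysosomal genes of the set, Cd68 was highest in 2i+LIF and lowest in CH+LIF, but LIF+PD was not below 2i. As shares of all FPKM, those sums overlapped between the withdrawal conditions. Csf1r reached 0.947 in CH+LIF replicate 2. Of 11 endoderm markers Ttr was at 0 and the sum lay between 1.94 and 2.99 FPKM outside LIF+PD and at 3.95 and 5.52 in it. Of 6 fibroblast markers Dcn and Lum were at 0, and the sum, 0.270 to 4.19 FPKM in the other 7 cultures, was 17.2 in CH+LIF replicate 2, where Postn alone stood at 14.1. The sum of 6 trophectoderm markers, mostly Tfap2c, which ES cells also express, was 62.6 and 73.7 FPKM in LIF+PD and between 26.9 and 49.5 elsewhere. Its members went opposite ways, Gata3 standing at 14.4 and 18.5 FPKM in LIF+PD and at most 6.83 elsewhere, while Cdx2 stood at 0.0433 and 0.0960 in LIF+PD, 1.90 and 0.733 in CH+LIF, and between 7.91 and 12.2 in 2i+LIF and 2i. The part of these markers in the results was not tested.

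Some limits touch single genes. Exons of 12 of the 32 genes overlap those of another gene in GENCODE M21, on the same strand for Ctsd, Glb1 (with Tmppe) and Ctsl (with a processed pseudogene), and on the opposite strand for genes including Ctsa, Ctsb, Ctsz, Hexa, Lamp1 and Sqstm1, and the study's methods state a strand setting for its gene counts, which are not used here, and not for the FPKM. The depth was read only relative to 2i+LIF replicate 1 from the steps of low values: 2i replicate 1 stood at 0.499 and the other 6 cultures between 0.903 and 1.18. The 1.18 of CH+LIF replicate 2 rested on 6.54% of the ratios of low values, against 17.3% to 19.0% in the others. The mitochondrial share of FPKM ran from 8.76% in 2i+LIF replicate 1 to 13.3% in 2i+LIF replicate 2. The top 10 genes held 17.9% and 17.7% of FPKM in 2i+LIF and 11.6% and 10.7% in CH+LIF. Rescaling every culture to the same FPKM sum moved the median log2 difference of all genes from 0.03 to 0.16 in LIF+PD and from 0.01 to 0.19 in CH+LIF against 2i+LIF, and from -0.03 to 0.09 in CH+LIF against 2i. The share of all calls that were higher went with it from 58.6% to 74.8%, from 47.9% to 74.1% and from 44.5% to 64.1%. The set then had 1 higher and 12 lower, 3 higher and 15 lower, and 3 higher and 6 lower.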

How the data were processed

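RNA was sequenced from 8 ES cell cultures in 4 conditions, 2 per condition. The authors deposited, for each culture, FPKM values per gene with a lower and an upper bound. The submitters' notes name TopHat2, Cufflinks, Cuffdiff and mm10, and per the study's methods reads were single-end. The labels give polyA RNA, the methods ribosomal RNA depletion. The bounds were not used as errors: 9542 of 136882 values above 0 (6.97%), and 35 of 249 for the 32 genes (14.1%), lay outside their own bounds. The 35 were values of Tfe3 and Lamp1 (8 each), Ctsl (7), Rragc (6), Hexa (3) and Sqstm1 (3). The total read counts are unknown, so no counting intervals were given. Columns of other samples numbered 0.

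Of 39013 entries per file, 22 repeated an identifier and were summed with it. The study's count-based test was replaced by limma 3.58.1 in R 4.3.3, with its trend option, on log2(FPKM + 1), which understates changes of low genes, over the 12927 genes reaching 1 FPKM in 2 or more cultures. All 8 cultures entered 1 fit (4 residual degrees of freedom), and p-values were Benjamini-Hochberg adjusted over all genes tested, with a threshold of 0.05. The fit was tested on simulated data. Promoter windows came from RefSeq (GRCm38.p6), exon overlaps from GENCODE M21.

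The 32 genes and the pathway lists were chosen with earlier results of these data known. From each pathway list the text could name, per comparison, the 2 largest increases and 2 largest decreases among genes called, with a mean FPKM of at least 5 in 1 condition and no overlap between cultures. Of 160 listed pathway genes 157 had values. The alternatives were other pseudocounts, filters and scalings, a replicate block, no trend, only the compared conditions, and each culture left out in turn.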

Additional observations from a re-analysis of the deposited data

How the results depend on the processing

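Each of 180 log2 differences (30 genes, 6 comparisons) was recomputed under up to 18 alternatives. Of 93 calls, 51 held in every one, 42 were lost in at least 1, and none changed direction while called. The 93 and the 51 include the descriptive calls against 2i+LIF, from which nothing is read. Between withdrawal conditions, 9 of 16 calls held in LIF+PD against 2i, 4 of 14 in CH+LIF against 2i and 5 of 15 in CH+LIF against LIF+PD. Of the 87 differences not called, 15 passed the threshold in at least 1. The number of the 30 genes called in CH+LIF against 2i, 14, was 8 without a filter on low values, 9 with every culture rescaled to the same FPKM sum and 7 with only the compared conditions in the fit. Over all genes the number called there, 3089, was 2653 (of 21125 tested), 3208 and 1808 in the same settings. In CH+LIF against LIF+PD 15 of the 30 genes were called, and 9 with only the compared conditions, beside 3928 and 3309 of all genes. With 1 culture left out, the lone culture being assumed to vary like the others, the number called ranged from 11 to 13 (14 with all cultures) in 2i against 2i+LIF, 11 to 15 (14) in LIF+PD against 2i+LIF, 13 to 22 (20) in CH+LIF against 2i+LIF, 10 to 16 (16) in LIF+PD against 2i, 5 to 12 (14) in CH+LIF against 2i and 7 to 14 (15) in CH+LIF against LIF+PD.

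Over all genes, the calls fell from 2408 to 1500 in 2i against 2i+LIF and from 3089 to 1808 in CH+LIF against 2i with only the compared conditions in the fit. With 1 culture left out they ranged from 1167 to 2141 (2408 with all cultures), 1687 to 3342 (3263), 1520 to 3330 (3286), 1970 to 2966 (3242), 1494 to 2705 (3089) and 2311 to 3991 (3928), in the order of the comparisons above. These fits hold fewer cultures, and the cause of the changes was not tested.

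Same-numbered cultures did not deviate together (r across genes from -0.0283 to 0.0925 between pairs of conditions), so the numbers were not read as pairing the cultures. With a replicate block, 14, 14, 22, 17, 13 and 15 of the 30 genes were called in the 6 comparisons. Of all 12927 genes tested, 2547, 3470, 3519, 3467, 3338 and 4105 were called with this block. With 2 cultures per condition, differences of up to about 3 SE did not always pass the threshold (Mcoln1 in CH+LIF against 2i, -0.57 ± 0.16, did and Fnip2, 0.42 ± 0.15, did not), and smaller ones are not shown to be absent.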
